A study of Mus musculus with 18 samples.

Results

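The forkhead transcription factor genes of the mouse were taken as the protein-coding autosomal genes of GENCODE vM21 (genome build mm10) whose symbol starts with Fox followed by a letter and a digit. This rule gave 41 genes out of 20807 autosomal protein-coding genes and used no measured value. Foxo4, Foxp3 and Foxr2 lie on the X chromosome and were left out. For each gene, H3K27me3 was read as the percent of its window that lay under peaks, a window being the gene body with 5 kb added before it and 1 kb after it. A gene was called covered when at least 50% of that window lay under peaks. For H3K27ac, a gene was called marked when a peak touched the 5 kb on either side of its transcription start.

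The study profiled both marks by ChIP-seq in bone marrow-derived macrophages (BMDM), which were grown from marrow for 7 days in L929-conditioned medium and left unstimulated. WT mice were labelled C57BL6. The mdx mice were labelled Dmdmdx-4Cv, a line with a mutation in the dystrophin gene. The third group was labelled mTLR4 with the strain Bl6/Bl10 and was read as mdxTLR4-/-, mdx mice that also lack TLR4. By the study's methods the mice were male and on a C57BL/6J background, which the strain label of the third group does not match. H3K27me3 had 2 ChIP and 2 input libraries per genotype. H3K27ac had 2 ChIP libraries from WT, 2 from mdx and 1 from mdxTLR4-/- BMDM, with 1 input library. By the labels the mice behind the H3K27me3 ChIP libraries were 12 to 13 weeks old for WT, 14 to 15 for mdx and 16 to 17 for mdxTLR4-/-. For H3K27ac the labelled ages were 19 to 20 weeks for WT, 21 to 22 for mdx and 23 for mdxTLR4-/-. Every library is labelled 1 week older than the one before it, and the inputs of the same genotypes are labelled 6 to 11 weeks, so these may not be the ages of the mice. As labelled, age followed genotype, and the effects of the 2 cannot be told apart.

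The authors merged the reads of replicate libraries before calling peaks, so each mark and genotype has 1 peak list, and 6 lists were analysed. Values below therefore carry neither a replicate error nor a p-value, and the intervals drawn around read counts cover counting error only. For H3K27me3 there were 28143 WT peaks, 41780 mdx peaks and 36488 mdxTLR4-/- peaks, with 7358418 to 10199918 reads in peaks per list. The H3K27ac lists were far thinner, with 12076 to 15665 peaks, 168487 to 274020 reads in peaks, a median of 8 to 10 reads per peak and a smallest peak of 5 reads. The depth of the libraries is not given in the lists. All 10 macrophage markers, among them Csf1r and Spi1, carried an H3K27ac peak at the start in WT and mdxTLR4-/- and 9 of 10 in mdx. Of the markers of other cells, 0 of 6 neutrophil and 0 of 6 fibroblast genes were marked in any list, 2, 1 and 1 of 5 B cell genes in WT, mdx and mdxTLR4-/-, 0, 1 and 1 of 4 T cell genes, and 1 of 4 endothelial genes (Pecam1) in each list. Tlr4 itself held 44, 29 and 28 H3K27ac reads at its start in the WT, mdx and mdxTLR4-/- lists. A peak at the start does not test the deletion.

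Forkhead proteins bind DNA through a shared winged-helix domain. Many of them act in the embryo, where they set up the endoderm, the vessels, the brain or the sense organs, and a smaller number work in most adult cells, where FOXO proteins carry signals from insulin and Akt to the genes of metabolism and survival, and FOXM1 drives genes of mitosis. H3K27me3 is laid down by the Polycomb complex PRC2 and forms broad domains over developmental regulators that a cell does not use. H3K27ac marks active promoters and enhancers and occupies the same lysine, so a single histone tail carries one or the other.

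Promoters of 26 of the 41 genes were found in the RefSeq promoter table (GRCm38.p6), which holds 250 bases before and 50 after a start. Foxc1, Foxi1 and Foxo3 are shown because they cover the range met below. Foxc1 has a CpG-rich promoter under H3K27me3, Foxi1 a CpG-poor promoter under H3K27me3, and Foxo3 a CpG-rich promoter under H3K27ac. The sequences are those upstream of the transcription start, 5′ to 3′ on the strand of the gene, with CpG dinucleotides in capitals.
Foxc1, chr13:31806396-31806632, plus strand: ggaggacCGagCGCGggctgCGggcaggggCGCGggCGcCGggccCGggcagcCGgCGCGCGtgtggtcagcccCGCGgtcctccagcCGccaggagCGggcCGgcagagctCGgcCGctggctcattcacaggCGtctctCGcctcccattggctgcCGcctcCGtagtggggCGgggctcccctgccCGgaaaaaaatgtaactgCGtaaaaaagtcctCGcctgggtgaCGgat
Foxi1, chr11:34208090-34208339, minus strand: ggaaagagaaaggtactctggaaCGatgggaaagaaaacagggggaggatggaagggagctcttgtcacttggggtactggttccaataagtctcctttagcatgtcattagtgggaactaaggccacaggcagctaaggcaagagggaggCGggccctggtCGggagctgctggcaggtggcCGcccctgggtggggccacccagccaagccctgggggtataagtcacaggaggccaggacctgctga
Foxo3, chr10:42276756-42276945, minus strand: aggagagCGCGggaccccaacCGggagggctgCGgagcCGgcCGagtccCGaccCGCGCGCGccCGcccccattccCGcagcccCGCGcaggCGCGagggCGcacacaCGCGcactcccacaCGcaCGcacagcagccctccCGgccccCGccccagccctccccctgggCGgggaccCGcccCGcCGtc
The Foxc1 stretch holds 29 CpG dinucleotides in 237 bases, the Foxi1 stretch 4 in 250 and the Foxo3 stretch 28 in 190.

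In WT BMDM, H3K27me3 covered 26 of the 41 forkhead genes, and in mdx and mdxTLR4-/- BMDM it covered 25 and 25. Over all genes tested the covered shares were 17.5%, 17.1% and 15.6%. In all 3 lists 25 of the genes were covered, against 14.7% of all genes. Median coverage of the forkhead genes was 79.8%, 85.2% and 75.7% in the WT, mdx and mdxTLR4-/- lists, and the median of all genes was 0. Peaks filled the whole window of 16, 13 and 13 forkhead genes, against 4.47%, 3.79% and 3.42% of all genes, and that of 12 in all 3 lists (2.51% of all genes). The transcription start itself lay under a peak in 27 forkhead genes in each list, where 24.5%, 24.7% and 23.6% of all starts did. At the other end, 10 forkhead genes had no H3K27me3 peak in the window in any list, against 53.7% of all genes.

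**Figure D1:**
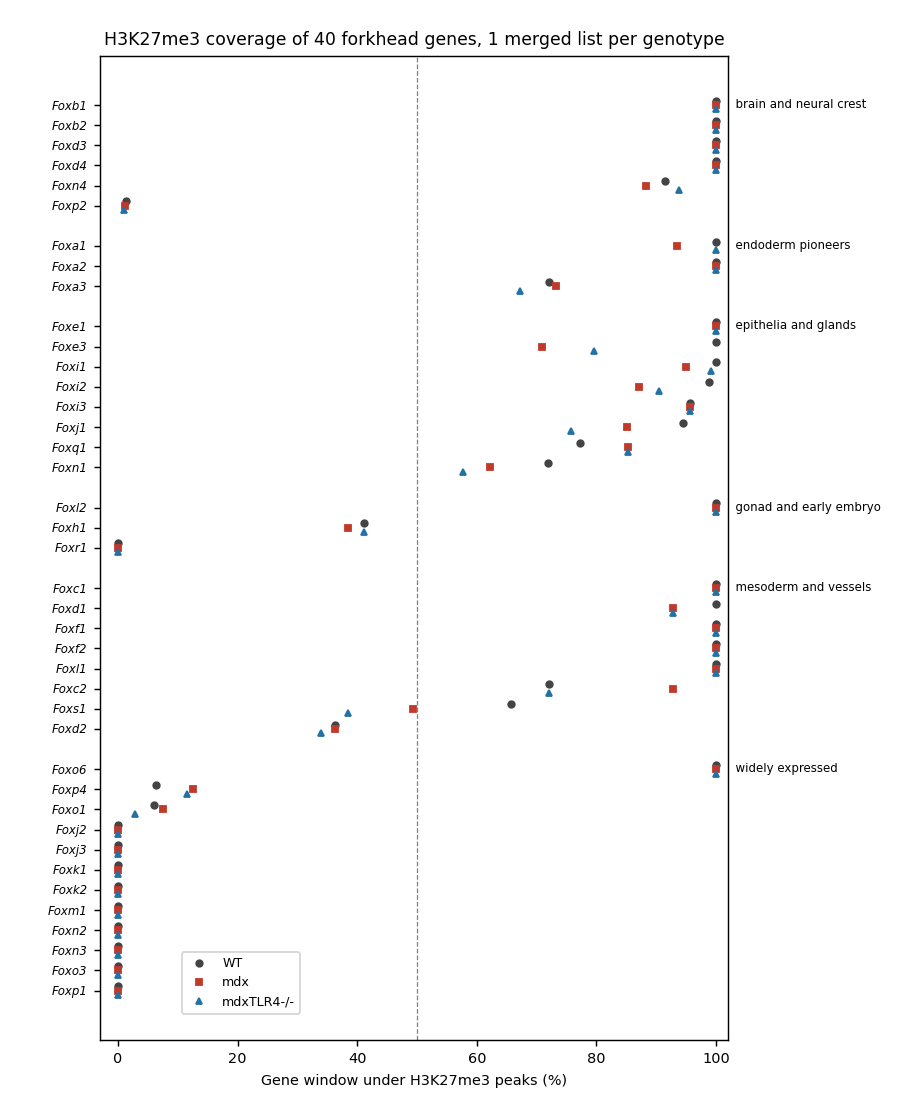
H3K27me3 coverage of 40 forkhead genes, as the percent of each gene window under peaks in the WT, mdx and mdxTLR4-/- lists, with 1 line per gene, genes grouped by role and a dashed line at the limit of 50%. Most genes of embryonic organs lie to the right of that line, and the widely expressed genes lie between 0 and 12.6% apart from Foxo6 at 100%.

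The other families of developmental transcription factors were also covered. H3K27me3 covered 38, 37 and 36 of 39 Hox genes in WT, mdx and mdxTLR4-/-, 12, 10 and 12 of 18 Sox genes, and 7, 7 and 6 of 12 Tbx genes. The forkhead family lay below Hox and near Sox and Tbx in share, without a test of the difference.

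By role the family fell into covered and uncovered groups. The 3 endoderm pioneer genes, whose products open closed chromatin in the early gut and liver, were covered in all lists. Foxa2 stood at 100% in WT, mdx and mdxTLR4-/-, Foxa1 at 100%, 93.5% and 100%, and Foxa3 at 72.1%, 73.3% and 67.2%. Of 8 genes of epithelia, sense organs and glands, 8 were covered in each list. Foxe1, a thyroid regulator, stood at 100% throughout. Foxi1, needed in the inner ear and in ion-transporting cells, stood at 100%, 94.99% and 99.1%, and Foxi3, a gene of the cranial placodes and teeth, at 95.6% in each list.

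Of 7 genes of the brain and neural crest, 6 were covered. Foxb1, Foxb2, Foxd3 (a specifier of the neural crest) and Foxd4 were at 100% in every list, and Foxn4, a gene of retinal progenitors, was at 91.4%, 88.3% and 93.8%. The exception, Foxp2, which shapes motor and speech circuits, had a body of 540.6 kb and only 1.32%, 1.24% and 1.06% of its window under peaks. In the 10 kb around its start the coverage was 72.0% in WT, 68.0% in mdx and 58.0% in mdxTLR4-/-, from 1 peak per list of 7.2, 6.8 and 5.8 kb. Foxp2 thus carried a peak at its start and none over the rest of its body.

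Of 8 genes of mesoderm and vessels, 7 passed the limit in WT, 6 in mdx and 6 in mdxTLR4-/-. Foxc1, Foxf1, Foxf2 and Foxl1 were at 100% in all lists, and Foxd1, a gene of the kidney stroma, was at 100%, 92.8% and 92.8%. Foxd2 stayed below the limit at 36.3%, 36.3% and 34.0%. Of the 3 genes of the gonad and early embryo, Foxl2, the regulator of ovarian granulosa cells, was at 100% in every list. Foxh1, a partner of SMAD proteins in Nodal signalling, was at 41.1%, 38.5% and 41.1%, and Foxr1 had no peak.

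The 12 widely expressed genes were largely free of the mark, and Foxo6 alone was covered. Foxo6, the FOXO member best known from the brain, was at 100% in every list under single peaks of 85.2, 64.4 and 57.8 kb. Foxo1 held a small peak upstream of its start, ending at -0.54 kb from it in WT and mdxTLR4-/- and at -0.34 kb in mdx, with 74, 104 and 68 reads in the WT, mdx and mdxTLR4-/- lists. A further peak lay in its body in WT and mdx, and another past its end in mdx. With these, 5.94%, 7.51% and 2.86% of the Foxo1 window lay under peaks. Foxp4 was at 6.4%, 12.6% and 11.5%, and around its start at 26.0%, 41.6% and 62.4%. The other 9 (Foxj2, Foxj3, Foxk1, Foxk2, Foxm1, Foxn2, Foxn3, Foxo3 and Foxp1) had no H3K27me3 peak in any list.

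**Figure D2:**
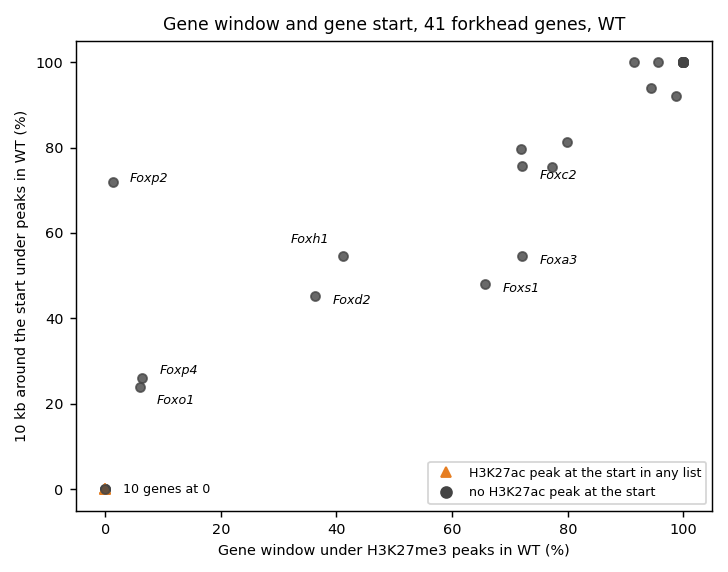
Percent of the gene window (horizontal axis) against percent of the 10 kb around the transcription start (vertical axis) under H3K27me3 peaks in WT BMDM, 1 point per forkhead gene, with triangles for genes with an H3K27ac peak at the start in any list. Most points follow the diagonal, Foxp2 lies far above it at 1.32% and 72.0%, and the 10 genes without a peak, the acetylated ones among them, overlap at 0.

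Gene length went along with the marks. The 25 genes covered in all lists had a median body of 4.09 kb, from 0.867 to 29.0 kb, and 11 of them had a single exon. The 6 genes with H3K27ac at the start in at least 1 list had a median body of 93.5 kb, from 49.8 to 597.4 kb. The median over all autosomal protein-coding genes was 17.6 kb and over the forkhead genes 5.06 kb. The 10 kb around the start has the same length for every gene. By that measure 27, 27 and 28 forkhead genes had at least 50% under peaks in WT, mdx and mdxTLR4-/-, against 22.2%, 21.6% and 20% of all genes.

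The peaks over forkhead genes were long and densely read. The peaks over the 27 forkhead starts that lay under one had a median length of 23.4 kb in WT, 21.0 kb in mdx and 20.6 kb in mdxTLR4-/-, against 5.4, 3.4 and 3.4 kb for all peaks of the lists. A long peak is more likely than a short one to lie over any given start, so these medians are a description. Peaks over the 31 forkhead genes with any H3K27me3 had a median density of 47.8 reads per kb in WT, 58.6 in mdx and 45.8 in mdxTLR4-/-, and the medians over the 7548 genes of the annotation with a peak in every list were 32.2, 38.3 and 31.0. The densest gene in WT was Foxl2 at 72.1 reads per kb, and the least dense was Foxo1 at 26.7. These densities are not scaled for depth, and input was not subtracted.

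Read density in the peaks was compared between genotypes by its ratio. The median ratio of mdx to WT over the 31 genes was 1.24, with 28 of 31 above 1, and over all genes it was 1.20. Foxc2 and Foxl1 share a peak and enter it with the same ratio. After scaling to 1000000 reads in peaks it was 1.01 for the forkhead genes and 0.982 for all genes. Between mdxTLR4-/- and mdx it was 0.845 unscaled, where all genes were at 0.813, and 1.17 after scaling, so its direction turned with the scaling. Between mdxTLR4-/- and WT it was 0.980 unscaled and 1.11 scaled, with the same change of side. No direction of density was therefore read from these lists, and the part of library depth in these ratios was not tested.

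**Figure D3:**
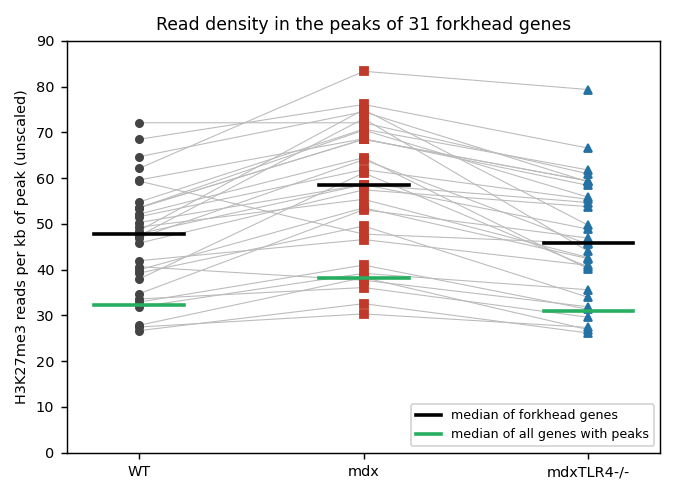
H3K27me3 read density in the peaks of each forkhead gene (reads per kb, unscaled) in the WT, mdx and mdxTLR4-/- lists, 1 point per gene and list, with grey lines joining the points of a gene. Black bars give the forkhead medians of 47.8, 58.6 and 45.8 reads per kb, and green bars the lower medians of all genes with peaks, 32.2, 38.3 and 31.0.

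Between genotypes, coverage differed by 10 percentage points or more for 7 of the 41 genes, and the other 34 stayed within 10 points in all lists. From WT to mdx, 3 genes were lower (5.79% of all genes were) and 2 were higher (5.04%). From mdx to mdxTLR4-/-, 3 were lower (8.03%) and 0 higher (2.6%). From WT to mdxTLR4-/-, 5 were lower (8.82%) and 0 higher (2.67%). Among genes with an H3K27me3 peak in any list, the shares over all genes were 12.5% lower and 10.9% higher from WT to mdx, 17.3% and 5.63% from mdx to mdxTLR4-/-, and 19.1% and 5.76% from WT to mdxTLR4-/-. Against these, the 31 forkhead genes with a peak had 9.68% lower and 6.45% higher from WT to mdx, 9.68% lower from mdx to mdxTLR4-/-, and 16.1% lower from WT to mdxTLR4-/-. Differences of this size rest on few genes and were not tested. Each list enters 2 of these comparisons, so they are not independent. In the 10 kb around the start, 2 forkhead genes were lower (7.73% of all genes) and 3 higher (7.96%) in mdx than in WT, 2 lower (10.8%) and 1 higher (4.58%) in mdxTLR4-/- than in mdx, and 5 lower (10.6%) and 1 higher (5.09%) in mdxTLR4-/- than in WT. The gene higher there in mdxTLR4-/- was Foxp4 in both comparisons. The call against mdx rests on a peak upstream of its start that only the mdxTLR4-/- list had, with 54 reads at 20.8 reads per kb. Against WT, the peak downstream of the start was also longer, at 3.6 kb in mdxTLR4-/- and 2.6 kb in WT. A second upstream peak of the mdxTLR4-/- list, with 48 reads at 18.5 reads per kb, reached only the edge of the window. The 1st percentile of density in that list was 14.1 reads per kb and the median 23.7, so both upstream peaks were weak. Mean coverage of the forkhead genes was 61.2%, 60.2% and 58.7% in WT, mdx and mdxTLR4-/-, and of all genes 18.4%, 18.2% and 16.8%.

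Foxe3, a lens gene of 0.867 kb on chromosome 4, differed most from WT to mdx. Its window was at 100% in WT, 70.9% in mdx and 79.6% in mdxTLR4-/-. A single WT peak of 12.6 kb with 478 reads stood where mdx had peaks of 6.4 and 2.4 kb with 451 and 87 reads and mdxTLR4-/- had peaks of 6.4 and 2.8 kb with 318 and 55 reads. The peaks were narrower in mdx and mdxTLR4-/- and had a gap between them, and their density was 61.1 and 40.5 reads per kb against 37.9 in WT, all unscaled.

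Foxc2, a regulator of lymphatic vessels and valves, was at 72.1% in WT, 92.8% in mdx and 72.1% in mdxTLR4-/-, and the upstream edge of the peak over it lay at -2.57 kb from its start in WT and mdxTLR4-/- and at -4.37 kb in mdx. Foxc2 was thus higher in mdx than in WT and back at the WT value in mdxTLR4-/-.

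Foxs1, a gene of pericytes and neural crest derivatives, was at 65.8% in WT, 49.4% in mdx and 38.4% in mdxTLR4-/-. Its peak lay wholly upstream, with the near edge at -0.19, -1.39 and -2.19 kb from the start, and held 1588, 1866 and 1507 reads. Foxj1, which drives the genes of motile cilia, was at 94.4%, 85.1% and 75.7%. Foxn1, the gene of the thymic epithelium that is mutated in nude mice, was at 71.9%, 62.2% and 57.7%. Foxi2 was at 98.8%, 87.1% and 90.4%. Foxs1, Foxj1 and Foxn1 were ordered WT above mdx above mdxTLR4-/-, with differences of -16.4 to -4.45 points from one to the next. In the 10 kb around the start Foxs1 and Foxj1 kept this order. Foxn1 did not, at 79.6%, 71.6% and 74.0% in WT, mdx and mdxTLR4-/-.

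**Figure D4:**
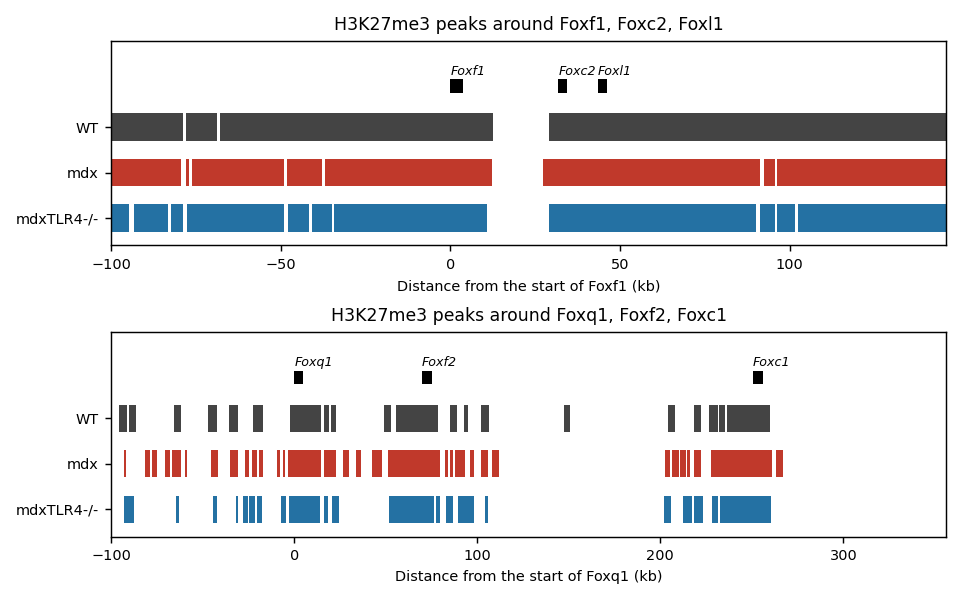
H3K27me3 peaks of the WT, mdx and mdxTLR4-/- lists around the forkhead clusters of chromosomes 8 (top) and 13 (bottom), drawn to scale as distance in kb from the start of the first gene, with gene bodies as black boxes above. The Foxf1-Foxc2-Foxl1 region is nearly filled in each list and is cut into more peaks in mdx and mdxTLR4-/- than in WT.

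Some forkhead genes, 8 in all, lay within 200 kb of another forkhead gene and formed 3 clusters. On chromosome 8, Foxf1 (121084386 to 121088144), Foxc2 (121116171 to 121118895) and Foxl1 (121127940 to 121130644), all on the plus strand, span 46.3 kb. Foxf1 is needed for the vessels of the lung, and Foxl1 marks the mesenchyme of the gut. With 100 kb on either side, 92.5% of this region lay under H3K27me3 in WT, 91.5% in mdx and 88.8% in mdxTLR4-/-. The covered length was thus nearly equal, and it was made of 4, 8 and 11 peaks in the respective lists, some of which ran on past the region. Foxc2 and Foxl1 shared 1 peak in every list, of 119.6, 64.0 and 61.0 kb with 6399, 4382 and 3621 reads. Foxf1 lay under a peak of its own, of 80.4, 49.2 and 45.0 kb with 4993, 4100 and 3570 reads. No H3K27ac peak was listed in the region for any genotype. Peaks of the whole lists were shorter as well, with medians of 5.4, 3.4 and 3.4 kb.

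The cluster of Foxq1, Foxf2 and Foxc1 on chromosome 13 spreads over 256.3 kb, and its genes lay under separate peaks. Foxc1 and Foxf2 were at 100% in all lists, and Foxq1, a gene of the hair shaft and of epithelia, was at 77.2%, 85.2% and 85.2%. With 100 kb on either side, 28.2% of the region lay under 20 peaks in WT, 37.4% under 32 in mdx and 28.8% under 21 in mdxTLR4-/-. On chromosome 4, Foxd2 and Foxe3 span 19.7 kb, and 44.9%, 45.3% and 43.8% of their region lay under 10, 14 and 15 peaks.

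In WT BMDM, H3K27ac was found at the start of 5 forkhead genes, in mdx BMDM of 4 and in mdxTLR4-/- BMDM of 6, and over all genes at the start of 32.9%, 28.3% and 30.4%. In all 3 lists the marked genes were Foxj3, Foxn3, Foxo3 and Foxp1 (21.8% of all genes were marked in all lists). In any list 6 were marked (39.6% of all genes), and all 6 belonged to the widely expressed group. Among genes without an H3K27me3 peak in any list, 5, 4 and 6 of 10 forkhead genes were marked, against 46.1%, 40.2% and 43% of all such genes, and 6 of 10 were marked in any list, against 53.9%. The shares of forkhead genes free of H3K27me3 were thus near those of other such genes.

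Foxo3, a FOXO factor of survival and stress resistance, held the most reads of these, with 66, 33 and 23 reads in 3, 2 and 2 peaks of the WT, mdx and mdxTLR4-/- lists. Scaled to 1000000 reads in peaks these were 241, 172 and 137. The sums move with how much was called, and the density was 10.6, 6.35 and 6.39 reads per kb of peak. In each list 1 of the peaks lay across the start, with 36, 20 and 18 reads in 2.4, 2.2 and 2.8 kb. By sum and by the unscaled reads of this peak WT was highest, and no test of the difference could be made on merged lists. The scaled ratio of the sums was 0.715 for mdx to WT, with a counting interval of 0.456 to 1.10 that spans 1. For mdxTLR4-/- to WT it was 0.567, with an interval of 0.336 to 0.923. The WT sum includes a peak with 22 reads from 4.755 to 7.154 kb downstream of the start, at the edge of the 5 kb window. The mdx sum includes a peak with 13 reads from 4.355 to 7.354 kb, and mdxTLR4-/- had no peak there. The ratios of the sums thus depend on this edge, and no interval was computed for the peak across the start alone.

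Foxp1, which takes part in B cell and monocyte differentiation, held 29, 21 and 18 reads in 2 peaks at the start in each list. Foxn3, a repressor of metabolic and cell cycle genes, held 24, 22 and 18 reads, and Foxj3 22, 21 and 19. Scaled to 1000000 reads in peaks, Foxp1 stood at 106, 109.6 and 107, Foxn3 at 87.6, 115 and 107, and Foxj3 at 80.3, 109.6 and 113. The order of the lists for these 3 genes turned with the scaling, and with so few reads no difference between genotypes was read from them.

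**Figure D5:**
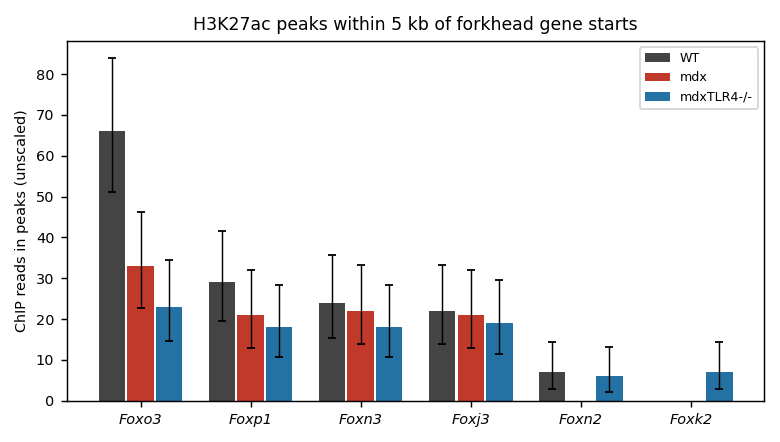
H3K27ac reads in peaks at the start of the 6 marked forkhead genes in the WT, mdx and mdxTLR4-/- lists, with exact 95% intervals that cover counting error only. Foxo3 is highest at 66, 33 and 23 reads, the other genes marked in all lists lie between 18 and 29, and Foxn2 and Foxk2 reach at most 7.

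Foxn2 and Foxk2 differed between lists. Foxn2 held 7 reads in WT and 6 in mdxTLR4-/- with no peak listed in mdx, and Foxk2, a repressor that acts in glucose metabolism, held 7 reads in mdxTLR4-/- and none in a peak of the other lists. Marked in WT and not in mdx was 1 forkhead gene (8.28% of all genes), and marked in mdx and not in WT were 0 (3.62%). There were 2 marked in mdxTLR4-/- and not in mdx (7.06%) and 0 the other way (4.95%), and 1 marked in mdxTLR4-/- and not in WT (4.59%) and 0 the other way (7.13%). The smallest peak that the lists hold has 5 reads, so these differences were at the limit of detection, and the mdxTLR4-/- list rests on 1 library.

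H3K27ac peaks also lay far from the starts. The Foxp1 window of 597.4 kb of gene body and its flanks held 14 H3K27ac peaks with 223 reads in WT, 10 with 136 in mdx and 11 with 123 in mdxTLR4-/-. Foxn3 held 4, 2 and 3 peaks. Foxk1, a partner of Foxk2 in metabolic control, had no peak at its start but 2 in its window in each list, of which the nearer lay 57.3, 55.3 and 46.9 kb downstream of the start. Of the genes with neither mark at the start, Foxj2 had its nearest peak at 7.11, 7.11 and 7.51 kb, Foxm1 at 61.2, 61.4 and 41.4 kb, and Foxr1 at 19.9, 20.5 and 20.7 kb. Foxo1, with H3K27me3 just upstream of its start, had its nearest H3K27ac peak at 68.5, 88.3 and 69.7 kb.

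No forkhead gene was both covered by H3K27me3 and marked by H3K27ac at its start in any list, and over all genes 0.831%, 0.543% and 0.437% were. Of the 25 genes covered by H3K27me3 in all lists, none had an H3K27ac peak anywhere in its window. Among all covered genes 4.76%, 3.17% and 2.8% had a peak at the start. Each forkhead gene thus fell in 1 of 4 states. There were 25 under H3K27me3 in all lists, 6 partly covered (Foxd2, Foxh1, Foxo1, Foxp2, Foxp4 and Foxs1), 6 with H3K27ac and no H3K27me3, and 4 with neither (Foxj2, Foxk1, Foxm1 and Foxr1). Foxp4 and Foxp2 were the partly covered genes with an H3K27ac peak in the window, each with 1 in WT only, of 6 and 10 reads.

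CpG content of the promoters was set beside these states. The median was 23.5 CpG per 300 bases in the 26 forkhead promoters and 15 in 15687 promoters of all genes. It was 31 in the 3 partly covered genes, from 26 to 33, and 26.5 in the 2 genes with neither mark, from 16 to 37. It was 18.5 in the 16 covered genes, from 5 to 32, and 35 in the 5 genes with H3K27ac, from 6 to 59. The low end of 6 is the Foxn3 promoter, whose RefSeq start lies 113508 bp from the acetylated start. The next lowest is Foxp1 with 13. The high end of 59 is Foxk2, which was marked in mdxTLR4-/- only, with 7 reads. The forkhead core motif GTAAACA was found on either strand in 1 of the 26 promoters, that of Foxa1, and in 2.95% of all promoters. The RefSeq starts of Foxj3 and Foxp1 also differ from the vM21 starts used for the peaks, by 2657 and 1728 bp.

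Genes upstream of FOXO proteins, their cofactors and their targets were read from a list of 38 genes. H3K27me3 covered 1 of them in each list, G6pc, the last enzyme of hepatic glucose release, at 87.8%, 90.2% and 100%. H3K27ac marked the start of 27 in WT, 25 in mdx and 25 in mdxTLR4-/-, beside the 32.9%, 28.3% and 30.4% of all genes given above. Of 14 genes upstream, 9 were marked in each list. Pik3ca, a catalytic subunit of PI3 kinase, held 48, 12 and 19 reads, and Akt1, the kinase that sends FOXO proteins out of the nucleus, 9, 6 and 7. Of 6 cofactors, 5, 4 and 4 were marked. Ep300, an acetyltransferase, held 30, 21 and 9 reads. Of 18 targets, 13, 12 and 12 were marked. Txnip, an inhibitor of thioredoxin, had 198, 140 and 103 reads, Ccng2, a cyclin of arrested cells, 53, 27 and 38, and Bcl2l11, which encodes the death factor BIM, 21, 19 and 12. These reads are unscaled, and the lists hold 274020, 191629 and 168487 reads in peaks. Not every gene was highest in WT, as Akt2 held 9, 10 and 11 reads and Trib1 22, 21 and 38. No difference between genotypes was read from these counts. By 10 points, H3K27me3 was higher in mdx than in WT at 1 gene of the 38 (5.04% of all genes) and lower at 0 (5.79%). It was lower in mdxTLR4-/- than in mdx at 2 (8.03%) and higher at 0 (2.6%), and lower in mdxTLR4-/- than in WT at 1 (8.82%) and higher at 1 (2.67%). These were Irs1, an adaptor of the insulin receptor, at 16.8%, 29.3% and 14.3%, Pck1, an enzyme of gluconeogenesis, at 37.8%, 29.1% and 16.0%, and G6pc.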

How the data were processed

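BMDM of WT, mdx and mdxTLR4-/- mice were profiled by native ChIP-seq after micrococcal nuclease digestion, in 18 libraries. The authors trimmed the reads, mapped them to mm10, merged replicates and called peaks with SICER2 (window 200 bp, gap 600 bp, FDR below 0.01), and the submitters' processing notes name CASAVA 1.8, cutadapt 1.15, Bowtie2 2.3.4 and SICER 2.0. Each deposited peak has a read count, with no scaling and no input subtracted. Peaks were intersected with gene windows of GENCODE vM21 on chromosomes 1 to 19 with Python 3.11.15 and numpy 2.4.6. Intervals of read counts were exact at 95% (scipy 1.17.1), and figures were drawn with matplotlib 3.10.9. Coverage was tested on simulated data, where 100% of 4000 windows were recovered.

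The members and lists were chosen with earlier results of these data known. Values in full were given for genes with H3K27ac at the start in any list, genes that differed by 10 points between any genotypes, genes within 200 kb of another member, and the 5 next highest in WT, which was widened to 11 because of ties at 100%. Foxa3, Foxd2, Foxh1, Foxi3, Foxj2, Foxk1, Foxm1, Foxn4, Foxo1, Foxp2, Foxp4 and Foxr1 were named as well, to account for every gene. One gene that the rule picks is not reported here, though it is in the counts. All genes of the fixed lists were found. With 1 list per mark and genotype no test was made. Alternatives were the coverage and change limits, the window, peak length, density and reads, equal numbers of peaks, and scaling.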

Additional observations from a re-analysis of the deposited data

How the results depend on the processing

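The coverage counts and differences were recomputed under other windows, limits and peak filters. A main count was held to stay when it was within 1.5 times of that reported, and a median density ratio when it was within its interval. By this, 59 recomputed values stayed and 25 moved, among them the density ratios of mdxTLR4-/- to mdx and to WT, which crossed 1. Shares of all genes under the same setting are given in brackets. With a change limit of 20 points, Foxe3 alone was lower in mdx than in WT (2.05%). By that limit 2 genes, Foxe3 and Foxs1, were lower in mdxTLR4-/- than in WT (3.47%). With 5 kb either side of the start as the window, Foxp4 alone was higher in mdxTLR4-/- than in mdx (4.58%) and than in WT (5.09%). With H3K27ac peaks within 1 kb of the start, 3 genes were marked in WT (28.7%). By that rule 0 differed between mdx and WT (10.5%) and 3 between mdxTLR4-/- and WT (10.3%). With 200 bp of the 5 kb upstream under peaks, 3 were marked in WT (26.8%) and 3 in mdxTLR4-/- (23%). By that rule 0 differed between mdx and WT (12.1%), 4 between mdxTLR4-/- and mdx (12.1%), and 4 between mdxTLR4-/- and WT (12.4%). With peaks of 10 reads or more, 0 differed between mdx and WT (10.1%), mdxTLR4-/- and mdx (9.2%), or mdxTLR4-/- and WT (10.9%). With the same number of peaks per list, 0 differed between mdx and WT (11.5%) and 1 between mdxTLR4-/- and mdx (12%). With the start of any transcript, 2 differed between mdx and WT (12.5%) and 2 between mdxTLR4-/- and WT (12.2%). The median density ratio was 1.01 for mdx to WT, 1.17 for mdxTLR4-/- to mdx and 1.11 for mdxTLR4-/- to WT when scaled to reads in peaks, and 1.06, 1.08 and 1.07 when densities were divided by the 1st percentile in each list. As reported, the H3K27ac calls that differ between lists rest on peaks of 6 to 7 reads at Foxn2 and Foxk2, and the alternatives add Foxj3, Foxn3, Foxp1 or Foxp4. For single genes 51 recomputed differences were counted as staying and 1 as moved, that of Foxe3 in mdxTLR4-/- to WT, to -35.1 points with denser peaks required. Some of those counted as staying fell below 10 points with 5 kb either side of the start as the window. Foxi2 went from -11.6 to -3.99 in mdx against WT, and Foxn1 from -14.2 to -5.58 in mdxTLR4-/- against WT. Foxs1 went from -10.9 to -8.00 in mdxTLR4-/- against mdx. No paired analysis was possible because replicates were merged before peak calling, and leaving out a replicate could not be done for the same reason.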

Other observations

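Long noncoding RNA genes lay beside 15 of the forkhead genes, with a start within 5 kb of the forkhead start, and were looked at after the data had been seen. Of these 15, H3K27me3 covered 7 in all lists, against 13.5% of the 12630 autosomal long noncoding RNA genes of the annotation. Fendrr, which starts 1276 bp from Foxf1 on the opposite strand, and Gm12688, Foxl2os and Foxo6os, which lie beside Foxd3, Foxl2 and Foxo6, were at 100% in WT, mdx and mdxTLR4-/-. Gm15556, beside Foxp4, was at 36.9%, 82.2% and 51.0% and held an H3K27ac peak at its start in WT only. Gm26839, beside Foxn3, was at 27.6%, 5.46% and 7.71% and held an H3K27ac peak at its start in each list. All but Gm44371, beside Foxm1, lie on the strand opposite to the forkhead gene, and their windows overlap those of the forkhead genes, so the 2 sets of values share peaks.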
